A study of Mus musculus with 22 samples.

Results

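The erythroid genes are 9 genes of red blood cell formation, chosen by name: the globin genes Hba-a1, Hbb-bs, Hbb-bt and Hbb-y, the haem synthesis gene Alas2, the membrane genes Slc4a1 and Epb42, and the transcription factor genes Gata1 and Klf1. They were read by 12 of the 30146 probes of a TempO-Seq panel, a targeted assay that joins 2 short detector oligos on a transcript and sequences the product, so they make up 9 of its 21450 gene symbols. The material was whole pancreas, taken at birth from C57Bl/6 mothers and from their pups. The mothers had been given the dioxin TCDD, an agonist of the aryl hydrocarbon receptor, at 20 ng/kg per day in 2 subcutaneous injections per week, or corn oil as the control, from before mating to birth. By their labels, the 22 libraries are 4 TCDD dams and 4 control dams, 4 TCDD female pups and 3 control female pups, and 4 TCDD male pups and 3 control male pups. Each library is named here by its label, with the number of the dam or litter, and is a separate animal.

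Genes of stage go against the stage label in 8 of the 22 libraries, so the erythroid genes are described across library classes set by 2 other genes. A library is of newborn type where the count of Afp, a fetal plasma protein, is above that of Pnlip, a lipase of the mature exocrine pancreas, and of adult type where it is not. The newborn type holds 14 libraries, of which 6 are labelled TCDD and 8 control. The adult type holds 8 libraries, of which 6 are labelled TCDD and 2 control. TCDD dams 10 and 6 and control dams 4 and 2 are of newborn type, and the adult type has TCDD male pups 11, 8 and 10 and TCDD female pup 6. The library nearest to the dividing line on the newborn side, TCDD female pup 10, had 760 CPM (counts scaled to a library total of 1000000) of Afp and 91.6 CPM of Pnlip, with 34.7 CPM of Hbb-bt. On the adult side it was TCDD dam 11, with 1.25 CPM of Afp, 44888 CPM of Pnlip and 6.83 CPM of Hbb-bt. With Y-linked transcripts also read, 13 libraries go against a label. Totals were 11223816 to 34911410 counts, at which a floor of 3 counts equals 0.0859 to 0.267 CPM. Floors and intervals cover counting error only. The members were chosen with the class pattern of these libraries in view, so class values below are a description with no test.

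Red cells form from progenitors under the transcription factor GATA1, which binds GATA motifs, and KLF1, which binds CACCC motifs in the promoters of adult globin genes. Maturing erythroblasts make haem, starting with ALAS2, and fill with haemoglobin, a tetramer of alpha-like and beta-like globin chains. The first, primitive red cells of the mouse embryo also use the embryonic chains encoded by Hbb-y and Hba-x. Mature mouse red cells lack a nucleus, but young ones (reticulocytes) still hold globin mRNA, so a blood-filled tissue can yield it. In the mouse, the fetal liver is the main site of red cell formation before birth, and bone marrow and spleen take over afterwards.

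The sequences before the start sites of 4 globin members and Alas2 are printed because these genes carry most of the member reads or set the beta-globin genes apart. Of the 9 members, 8 matched an entry of the RefSeq promoter table (build GRCm38.p6), all but Slc4a1. Each line gives the 250 bases before the annotated start, 5′ to 3′ on the gene's strand. Capitals mark matches on either strand to TGATAA or, as the other GATA word, to AGATAA, and to the word CACCC. The longer form CCACACCC contains that last word.
Hbb-bt, chr7:103813924-103814173, minus strand: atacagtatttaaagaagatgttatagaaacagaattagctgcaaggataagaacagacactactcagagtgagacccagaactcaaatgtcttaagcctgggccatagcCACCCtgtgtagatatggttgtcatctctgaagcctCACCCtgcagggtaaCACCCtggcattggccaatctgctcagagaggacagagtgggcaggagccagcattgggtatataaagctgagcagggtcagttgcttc
Hbb-bs, chr7:103827929-103828178, minus strand: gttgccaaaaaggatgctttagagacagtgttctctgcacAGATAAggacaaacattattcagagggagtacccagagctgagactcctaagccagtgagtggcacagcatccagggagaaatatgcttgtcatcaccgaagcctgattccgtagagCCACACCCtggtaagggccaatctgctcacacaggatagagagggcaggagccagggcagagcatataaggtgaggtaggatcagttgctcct
Hbb-y, chr7:103853208-103853457, minus strand: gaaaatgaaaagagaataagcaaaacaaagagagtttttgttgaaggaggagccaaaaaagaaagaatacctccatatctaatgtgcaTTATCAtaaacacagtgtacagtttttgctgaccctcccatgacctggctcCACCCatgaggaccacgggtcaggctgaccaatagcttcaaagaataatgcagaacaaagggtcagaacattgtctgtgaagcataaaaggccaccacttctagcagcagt
Hba-a1, chr11:32283422-32283671, plus strand: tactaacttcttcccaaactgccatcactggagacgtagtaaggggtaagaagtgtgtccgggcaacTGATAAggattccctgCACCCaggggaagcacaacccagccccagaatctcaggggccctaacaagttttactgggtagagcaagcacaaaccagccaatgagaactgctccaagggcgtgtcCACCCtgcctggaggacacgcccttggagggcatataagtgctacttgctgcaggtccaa
Alas2, chrX:150547167-150547416, plus strand: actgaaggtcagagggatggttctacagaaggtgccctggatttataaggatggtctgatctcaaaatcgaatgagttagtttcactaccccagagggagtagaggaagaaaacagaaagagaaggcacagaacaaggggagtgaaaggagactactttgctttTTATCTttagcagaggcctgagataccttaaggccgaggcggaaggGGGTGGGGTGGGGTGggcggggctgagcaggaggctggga
Of the 8 members with a window, 6 held at least 1 of the GATA words, as did 16.6% of the 32817 windows of that length, and 7 held CACCC, as did 52%. The longer CCACACCC stood in the Hbb-bs window alone among these 8, and in 3.19% of all windows. Hbb-bt, the most highly counted member, had 3 copies of CACCC and neither GATA word in this window. Hba-a1 and Hba-a2, a neighbouring alpha-globin gene that is not a member, shared an unbroken run of 247 of the 250 bases. In Hbb-bs and Hbb-bt the longest shared run was 14 bases. These matches are a description of letters, not of binding.

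Transcripts of these globin genes are also near copies. In GENCODE M21, Hba-a1 and Hba-a2 were identical at 99.8% of 538 aligned bases, and Hbb-bs and Hbb-bt at 92.7% of 626. Of all stretches of 50 bases in Hba-a1, 67.5% occurred unchanged in Hba-a2, and of those in Hbb-bs, 65.8% occurred in Hbb-bt. Between Hbb-bt and Hbb-y the identity was 71.5%, and no stretch of 50 bases was shared. The probe sequences were not used here, so how reads divide between the near copies is uncertain, while Hbb-y can be told apart from Hbb-bt.

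Adult beta-globin Hbb-bt was the only member that separated the classes. Its level was 32.8 to 71.1 CPM in the newborn type, with a median of 49.1 CPM, and 0.846 to 12.9 CPM in the adult type, with a median of 3.82 CPM. All 14 newborn-type libraries lay above all 8 of adult type, with a ratio of medians of 12.9 and a difference of medians of 3.52 in log2(CPM + 0.5). Counts of Hbb-bt were 437 to 1227 in the newborn type and 13 to 182 in the adult type. Thus 1 of 9 members did not overlap, against 40.8% of all genes with at least 1 count and 77.8% of the 10238 genes with a mean count of at least 20, of which 0.518% were higher in the adult type without overlap. Of all genes with a count, 0.28% were. Only 2 of the 9 members, Hbb-bt and Slc4a1, had a mean count of at least 20, and 1 of these 2 did not overlap. The classes were themselves read from these data, and the share is on the CPM scale. Nothing is read from it, and its cause was not tested.

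Most genes had a higher CPM in the newborn type, with a median difference of 1.74 over those 10238 genes and quartiles of 1.28 and 2.26. Relative to that median, Hbb-bt lay 1.77 higher on the log2 scale, and 502 genes (4.90%) had a larger difference. Slc4a1, the band 3 anion exchanger of the red cell membrane, lay 0.19 above the median, and 39.7% of genes had a larger difference. That distance was 0.78 with 0.1 CPM added in place of 0.5, 0.69 with TMM factors (normalization by the trimmed mean of M-values) and 0.43 without the 8 libraries whose stage genes go against the label. Summed, 7 acinar markers (digestive enzymes, with Pnlip of the class rule, and the factor Ptf1a) took 63078 to 82858 CPM in the newborn type and 153132 to 172527 CPM in the adult type. The part of that sum in the shift of all genes was not tested. With these factors (1.19 to 1.83 in the newborn type and 0.363 to 0.593 in the adult type), the median of all genes moved to 0.12 and the difference of Hbb-bt to 1.70. On that scale 0 of 9 members were without overlap, as control dam 7 stood at 24.0 and the lowest newborn-type library at 18.8, and 12 of the 14 newborn-type libraries lay above every adult-type one. The split of genes without overlap moved as well, with 7962 higher in the newborn type and 53 higher in the adult type by CPM, and 1654 and 1029 with TMM factors.

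**Figure D1:**
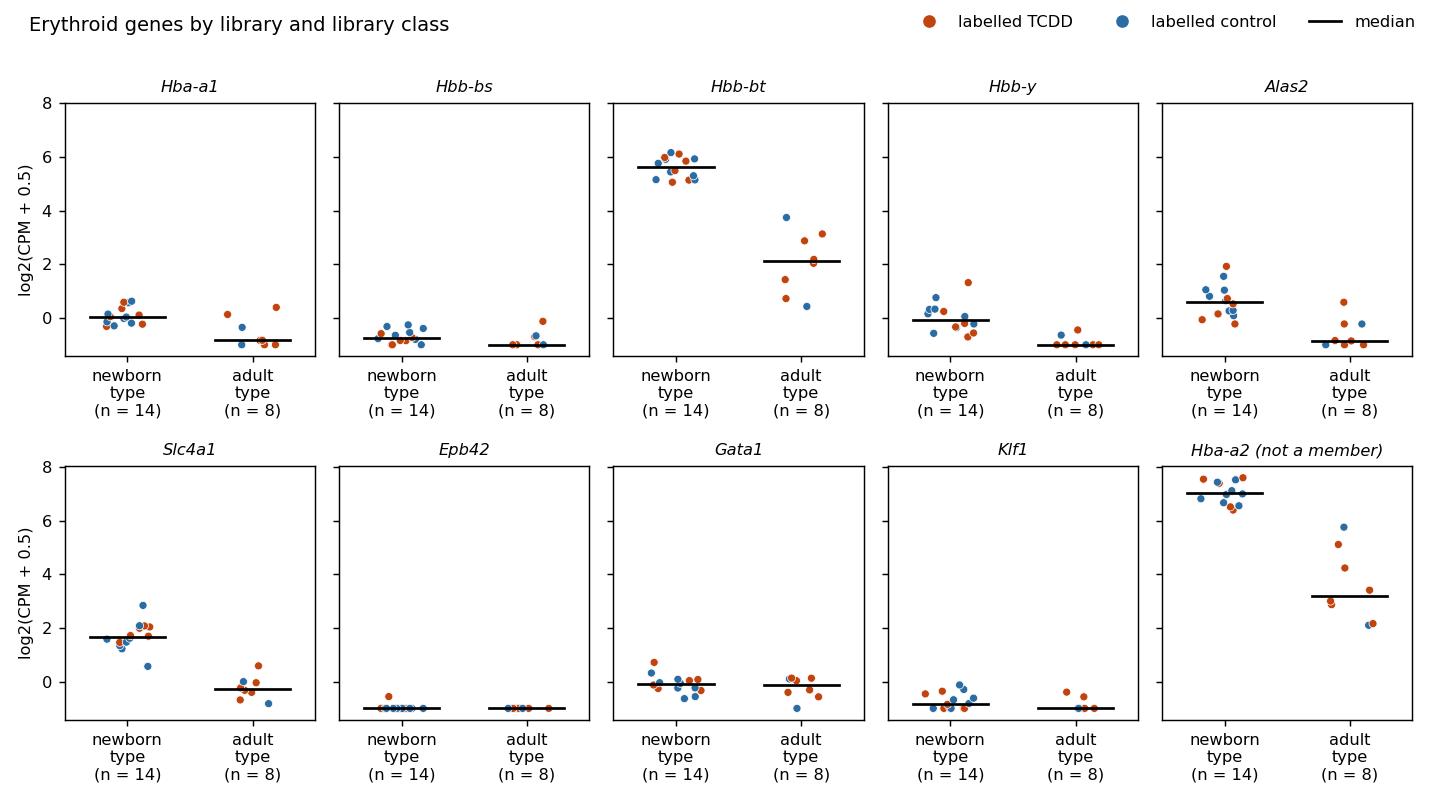
Level of each member and of Hba-a2 in every library, as log2(CPM + 0.5), in newborn-type libraries (left, n = 14) and adult-type libraries (right, n = 8); each point is 1 library, coloured by its TCDD or control label, and black lines are medians. By CPM, Hbb-bt and Hba-a2 separate the classes (with TMM factors both overlap), Slc4a1 and Alas2 overlap in the range of TCDD female pup 6, and Gata1, Klf1, Hbb-bs and Epb42 lie near the bottom in both.

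Globin reads came almost entirely from 1 beta and 1 alpha probe, those named for Hbb-bt and Hba-a2. How far the near copies Hbb-bs and Hba-a1 were transcribed cannot be read from this. Hba-a2, an adult alpha-globin gene outside the 9, had 83.5 to 193 CPM in the newborn type, with a median of 132 CPM, and 3.78 to 53.5 CPM in the adult type, with a median of 8.79 CPM. No library overlapped, and the log2 difference was 3.84, or 2.10 above the median of all genes. Hba-a1, the member for alpha globin, had a median of 0.529 CPM (range 0.303 to 1.04) in the newborn type and 0.0601 CPM (0 to 0.814) in the adult type. Its classes overlapped, and at 161 counts over all libraries its probe was read far less than that of its near copy. Hbb-bs, the other adult beta-globin, had 39 counts in all, with 0 to 0.336 CPM in the newborn type and 0 to 0.416 CPM in the adult type. It had a count in 11 of the 14 newborn-type libraries and in 3 of the 8 of adult type, so its levels lay around the floor.

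Embryonic beta-globin Hbb-y had 0.112 to 1.99 CPM in the newborn type, with a median of 0.453 CPM, and 0 to 0.233 CPM in the adult type, where 6 of 8 libraries held no read. The highest value, 36 counts, was in TCDD dam 6. As a share of Hbb-y and Hbb-bt reads together, Hbb-y took 129 of 11376 reads in the newborn type, or 1.13% (95% Wilson interval 0.955 to 1.35%). In the adult type it took 6 of 644, or 0.932% (0.428 to 2.02%), and 4 of these 6 reads were in TCDD male pup 8. These sums are over libraries, and single newborn-type libraries ranged between 0.163% and 3.38%, so the intervals understate the spread. Hbb-y was read by 2 probes and Hbb-bt by 1, so the shares are of reads, not of transcripts. Hba-x, the embryonic alpha-like (zeta) chain, took 1.26% of Hba-x and Hba-a2 reads in the newborn type (397 of 31453) and 0.547% in the adult type (12 of 2193). It was read in all 14 newborn-type libraries and in 2 of the 8 of adult type, with 7 of the 12 adult-type reads in TCDD male pup 8.

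The ratio of the beta to the alpha probe varied far less than either level. Hbb-bt gave 0.313 to 0.432 reads per Hba-a2 read in the newborn type, with a median of 0.353, and 0.224 to 0.481 in the adult type, with a median of 0.307. The classes overlapped in this ratio, although the levels themselves did not. Within the newborn type the ranks of both probes ran together, with a Spearman rho of 0.952 over 14 libraries that share the total used for scaling. In the adult type the 3 libraries with the most Hba-a2 were control dam 7, TCDD female pup 6 and TCDD dam 11, and these also had the most Hbb-bt.

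**Figure D2:**
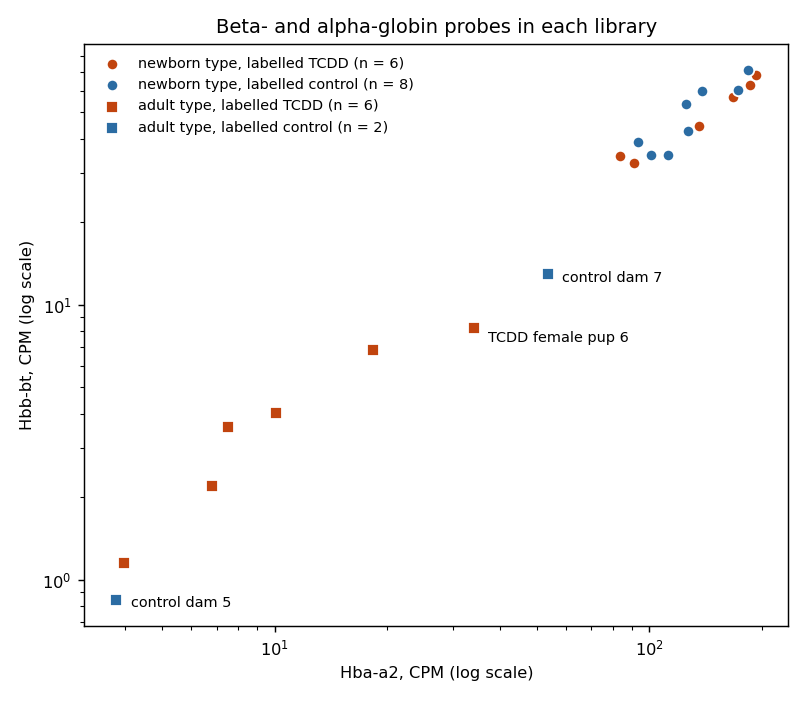
Hbb-bt against Hba-a2 in each of the 22 libraries, in CPM on log axes; circles are newborn-type and squares adult-type libraries, coloured by TCDD or control label. The points follow 1 line across both classes, and control dam 7 (12.9 CPM of Hbb-bt, 53.5 CPM of Hba-a2) is the adult-type library nearest to the newborn type.

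Alas2, the red-cell form of the first enzyme of haem synthesis, had 0.356 to 3.29 CPM in the newborn type, with a median of 0.998 CPM, and 0 to 1.0 CPM in the adult type, with a median of 0.0552 CPM. Its log2 difference of 1.43 was 0.31 below the median of all genes, and the added 0.5 CPM understates differences at these levels. With 0.1 CPM added in its place the difference was 2.82, which is 0.90 above the median of all genes on that scale, and with TMM factors it lay 0.72 above. The classes overlapped, since 7 of the 14 newborn-type libraries lay above every adult-type one. Among adult-type libraries, 3 had no read and TCDD female pup 6 had 17.

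Slc4a1 had 0.98 to 6.65 CPM in the newborn type, with a median of 2.65 CPM, and 0.0651 to 1.0 CPM in the adult type, with a median of 0.323 CPM. Here 13 of the 14 newborn-type libraries lay above all adult-type ones, and control male pup 2, at 0.98 CPM, lay just under TCDD female pup 6. Leaving out the 8 libraries whose stage genes go against the label left 10 of newborn type and 4 of adult type. Slc4a1 then no longer overlapped, and 2 of 9 members, Hbb-bt and Slc4a1, separated the classes. These are the only 2 members with a mean count of at least 20. Of the 10238 genes, 88.6% were without overlap and higher in the newborn type in this setting, against 77.8% with all 22 libraries. Epb42, which encodes protein 4.2 of the same membrane complex as Slc4a1, had 3 counts in all, each in TCDD female pup 10.

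The transcription factor genes stood near the floor in both classes. Gata1 had 0.143 to 1.14 CPM in the newborn type and 0 to 0.594 CPM in the adult type, with medians of 0.434 and 0.414 CPM. Its log2 difference was 0.042 by CPM and -0.80 with TMM factors, so no direction is given, and its 3 probes had 128, 13 and 10 counts in all. Klf1 had 0 to 0.416 CPM in the newborn type, where 8 of 14 libraries held a read, and 0 to 0.261 CPM in the adult type, where 2 of 8 did. Differences in Klf1, Epb42 and Hbb-bs were not detectable at this depth. The red cell label of this gene set therefore rests on reads of globin, Slc4a1 and Alas2, and only to a small extent on Gata1 and Klf1.

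**Figure D3:**
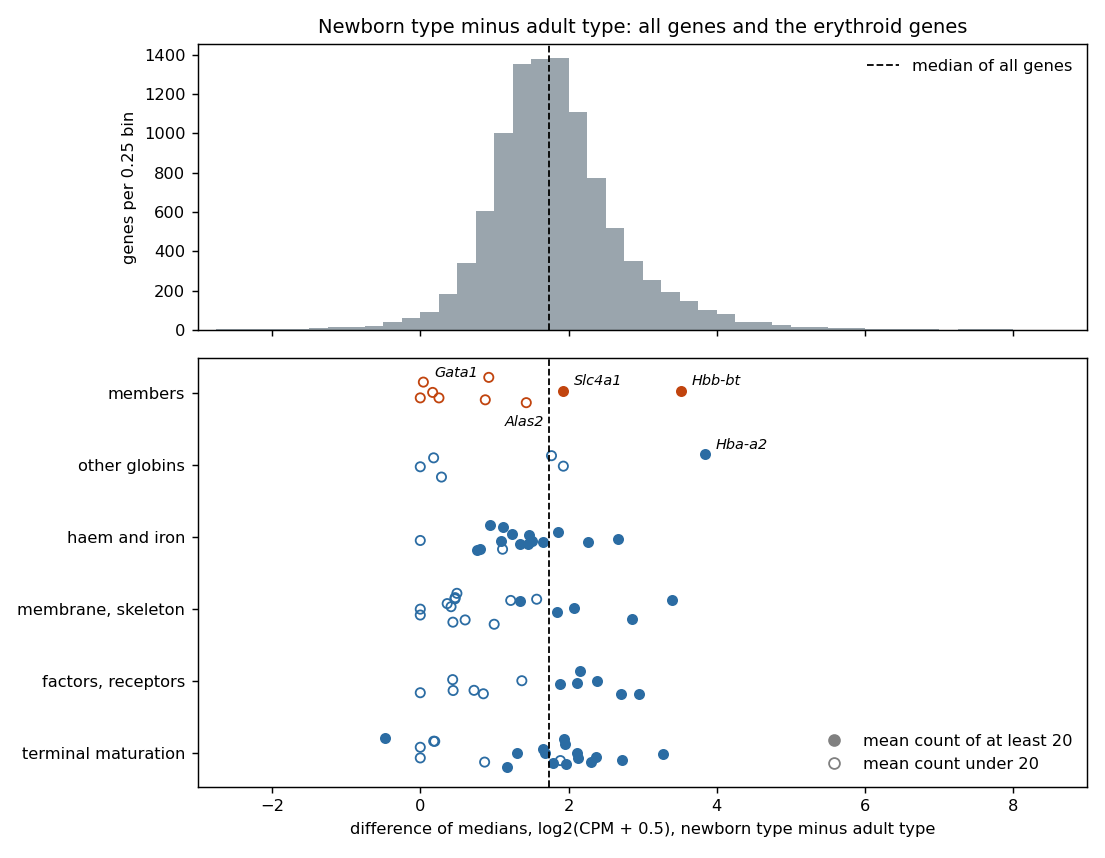
Difference of class medians in log2(CPM + 0.5), newborn type minus adult type, as a histogram of the 10238 genes with a mean count of at least 20 (top) and for each member and each other erythroid gene by role (bottom; filled, mean count of at least 20; open, under 20). The dashed line is the median of all genes, 1.74; Hbb-bt at 3.52 and Hba-a2 at 3.84 lie to its right.

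Other genes of red cell formation, 72 measured of 76 listed, lay close to the general shift. For the 41 with a mean count of at least 20 the median difference was 1.89, against 1.74 for all genes, and 24 were above that median. Of these 41, 30 did not overlap and were higher in the newborn type, next to 77.8% of all genes. With TMM factors 3 of the 41 did not overlap and were higher in the newborn type, next to 16.2% of all genes. On that scale the median of the 41 was 0.28 against 0.12 for all genes, and 25 lay above the latter. A difference above 3 was seen for 3 of the 41 and for 9.39% of all genes. They included Hba-a2 and the water channel gene Aqp1 (3.40), both named after their values were seen.

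By role, the 14 haem synthesis and iron genes had a median difference of 1.39, the 5 membrane and skeleton genes 2.07, the 6 transcription factor and receptor genes 2.27 and the 15 genes of terminal maturation 1.95. Tfrc, the transferrin receptor for iron uptake, had medians of 92.3 CPM in the newborn type and 18.9 CPM in the adult type. For Cpox and Fech, enzymes of the haem pathway in all cells, the medians were 69.5 and 52.3 CPM in the newborn type and 24.0 and 18.8 CPM in the adult type. Epb41, encoding the skeletal protein 4.1, had a difference of 1.34. Among regulators, Klf3, Sox6 and Lmo2 had differences of 2.11, 2.38 and 2.95, and each also acts in other cell types. The terminal maturation genes with the highest newborn-type median CPM were Prdx2, an antioxidant enzyme abundant in red cells, Bnip3l, needed for clearance of mitochondria, and Bpgm, which makes 2,3-bisphosphoglycerate, with differences of 2.37, 1.96 and 2.30. Slc38a5, an amino acid transporter named after its value was seen, was at -0.48, with overlap.

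Markers of other blood cells and tissues moved with the classes too, as did most genes. The counts without overlap below stand next to 77.8% of genes with a mean count of at least 20. For all genes with at least 1 count the share was 40.8%, both by CPM with the newborn type higher. Mast cell markers (8 genes) summed to 35.3 to 76.2 CPM in the newborn type and 0.47 to 2.91 CPM in the adult type, and 6 of the 8 did not overlap. Neutrophil and granulocyte precursor markers (9) summed to 40.7 to 178 CPM in the newborn type and 0.128 to 11.3 CPM in the adult type, with 7 of 9 not overlapping and Elane at 0 in the adult type. For hepatocyte markers (11, with Afp of the class rule among them) the sums were 1082 to 3139 CPM in the newborn type and 4.73 to 26.2 CPM in the adult type, and all 11 were without overlap. Macrophage markers of erythroid tissue (12) summed to 147 to 226 CPM in the newborn type and 8.88 to 52.6 CPM in the adult type, with 7 of 12 not overlapping. In the newborn type Vcam1 gave 24.6 to 55.3 CPM of this sum, while Spic had 0 to 4 counts. Platelet and megakaryocyte markers (10 measured) summed to 9.15 to 15.5 CPM in the newborn type and 0.448 to 2.20 CPM in the adult type, with 1 not overlapping and Gp9 and Gp1bb at 0 in the adult type. Most of this sum was Pf4, with 7.66 to 14.7 CPM in the newborn type, where Itga2b had 0 to 1.04 CPM. Endothelial markers (7) summed to 45.4 to 102 CPM in the newborn type and 5.29 to 23.6 CPM in the adult type, with 6 of 7 not overlapping. The part of these cells, and of blood held in the tissue, in the levels of the members was not tested. In whole tissue, fewer cells of a type and less RNA per cell cannot be told apart. Pancreas itself was read through its acinar markers and through 7 islet markers, which summed to 1149 to 2299 CPM in the newborn type and 101 to 364 CPM in the adult type, with Pdx1 at 0 in all libraries.

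Within the adult type, the library with the most globin was also the one with the most B cell reads. Control dam 7 had 12.9 CPM of Hbb-bt, and its 8 B cell and spleen markers summed to 54.2 CPM, against 0.104 to 13.1 CPM in the other 7. Its counts were 117 for Ms4a1 and 218 for Cr2, which encode B cell surface proteins, while Nkx2-5 was at 0. This library also had the highest macrophage (52.6 CPM), islet (364 CPM), mast cell (2.91 CPM) and cell division (150 CPM) sums of its class. Its platelet, neutrophil, eosinophil, hepatocyte, endothelial and acinar sums were exceeded in the class. TCDD dam 8, next in B cell markers (13.1 CPM), had 4.04 CPM of Hbb-bt. Second in globin, TCDD female pup 6 had 8.26 CPM of Hbb-bt with 2.18 CPM of B cell markers, the highest Slc4a1 and Alas2 of its class (1.0 CPM each) and the highest endothelial sum (23.6 CPM). Control dam 5 was lowest, with 0.846 CPM of Hbb-bt and 0.326 CPM of B cell markers. The part of other tissue in these values was not tested. Newborn-type B cell sums were 3.92 to 19.3 CPM and overlapped those of the adult type.

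Inside the newborn type Hbb-bt overlapped between the stage labels. It had a median of 49.1 CPM (32.8 to 71.1) in the 10 labelled pups and 50 CPM (34.9 to 62.7) in the 4 labelled dams. Alas2 had a median of 1.20 CPM (0.356 to 3.29) in these pups and 0.708 CPM (0.609 to 0.937) in these dams, again overlapping, at 6 to 59 counts a library. No test was run on the stage label. In the adult type the median of Hbb-bt was 2.90 CPM (1.15 to 8.26) in the 4 labelled pups and 5.43 CPM (0.846 to 12.9) in the 4 labelled dams. With the labels taken as given, 14 pups against 8 dams, Hbb-bt ranged over 1.15 to 71.1 CPM in pups and 0.846 to 62.7 CPM in dams, and 0 of 9 members separated the stages, as for all 10238 genes. In the newborn type, the 7 libraries with Y-linked transcripts had a median of 57.0 CPM of Hbb-bt and the 7 without them 43 CPM, with overlapping ranges of 34.9 to 68.5 and 32.8 to 71.1 CPM.

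The effect of the TCDD label on the members was fitted within each class, across all probes that passed a filter on low counts. In the newborn type Hbb-bt had 32.8, 50.7 and 68.5 CPM (lowest, median, highest) in the 6 libraries labelled TCDD, against 34.9, 48.4 and 71.1 CPM in the 8 labelled control. The means were 50 ± 14.9 CPM in TCDD libraries and 49.6 ± 13.6 CPM in control libraries (SD). By label, these TCDD libraries carry dam or litter numbers 6, 8, 10 and 11, and the control libraries 2, 4 and 7. The main fit took all 14 libraries as independent, so its SE may be too small if libraries of 1 number are alike. The ranges overlapped almost fully, and the fitted log2 fold change was -0.13 ± 0.17 (SE), with an adjusted p of 1 by edgeR's quasi-likelihood test. The size depended on the libraries: it was -0.38 ± 0.19 in the labelled pups of that class and -0.67 ± 0.23 in the 5 libraries whose stage and Y-linked genes fit the labels, and Hba-a2 moved likewise, at -0.028 ± 0.17 in all 14, -0.28 ± 0.19 in the pups and -0.68 ± 0.21 in the 5. None of these passed (edgeR, adjusted p of 0.952 to 1). Slc4a1 had 2.25, 3.12 and 3.71 CPM in TCDD libraries, against 0.98, 2.38 and 6.65 CPM in control libraries, a log2 fold change of -0.038 ± 0.28. For Alas2 these were 0.356, 0.773 and 3.29 CPM in TCDD libraries, against 0.56, 1.15 and 2.43 CPM in control libraries, at -0.24 ± 0.43. Only these 3 member probes passed the filter, and 0 of them were called. Over all 17109 probes 0 (0%) were called by edgeR, 554 had an unadjusted p under 0.05, and 0 were called by DESeq2. Other erythroid genes gave 0 calls of 51 tested, with 24 positive and 27 negative fold changes and a median of -0.014, against -0.0013 for all probes. Of these, Tfrc (-0.31 ± 0.11), Nfe2 (-0.47 ± 0.22), a globin gene activator, and Gata2 (0.61 ± 0.28), a progenitor factor, had an unadjusted p under 0.05.

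In the adult type Hbb-bt stood at 6.83, 4.04, 8.26, 1.15, 2.19 and 3.60 CPM in the libraries labelled TCDD (dams 11 and 8, female pup 6, male pups 10, 11 and 8), against 0.846 and 12.9 CPM in control dams 5 and 7. The control libraries were at both ends of the range. The log2 fold change was -0.46 ± 0.65 with control dam 7 and 2.28 ± 0.83 without it, with an adjusted p of 1 by edgeR in both cases. Without either control dam the control side is 1 library, which is then assumed to vary like the TCDD libraries. With no filter on low counts, edgeR called Hba-a2, not a member, at -0.93 ± 0.21 (adjusted p = 0.00402), against -0.93 ± 0.65 (adjusted p = 1) with the filter, and its sign turned without control dam 7 (1.71 ± 0.78, adjusted p = 1). The Hbb-bt probe was the only member probe past the filter. Of 13513 probes 0 (0%) were called by edgeR, with 388 at an unadjusted p under 0.05, and 0 by DESeq2. Without control dam 5, edgeR called 2 probes, neither a member. The TCDD effect differed between the classes by 0.31 ± 0.58 for Hbb-bt on the log2 scale, newborn type minus adult type (edgeR, adjusted p = 0.935). For that difference 0 of 5 member probes and 0 of 19209 probes (0%) were called by edgeR. DESeq2 called 23 of all probes and 0 member probes, and 1523 had an unadjusted p under 0.05 by edgeR.

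Taken by label alone, the groups of animals mix the classes. Among dams, Hbb-bt was 62.7, 57.0, 6.83 and 4.04 CPM in those labelled TCDD (10, 6, 11 and 8), against 34.9, 43, 12.9 and 0.846 CPM in control dams 4, 2, 7 and 5. Each side held 2 libraries of each class, and the log2 fold change was 0.33 ± 0.66 (edgeR, adjusted p = 1). In female pups the values were 68.5, 34.7, 32.8 and 8.26 CPM with the TCDD label (11, 10, 8 and 6), against 59.8, 71.1 and 60.4 CPM in controls 2, 4 and 7. The TCDD libraries lay below every control in 3 of 4 cases, at a log2 fold change of -0.78 ± 0.32, which did not pass (edgeR, adjusted p = 0.996), and at -0.61 ± 0.21 with the class as a covariate. Male pups labelled TCDD had 44.5, 3.60, 2.19 and 1.15 CPM (6, 8, 11 and 10), against 38.9, 53.8 and 35.1 CPM in controls 2, 4 and 7. The 3 low values are the adult-type libraries, and the log2 fold change of -1.35 ± 0.59 (edgeR, adjusted p = 0.299) was -0.17 ± 0.36 with the class as a covariate. Without TCDD male pup 6 it was -2.23 ± 0.30 (edgeR, adjusted p = 3.36e-05), and label and class then cannot be told apart.

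In these 3 comparisons 0 of 3, 0 of 4 and 0 of 2 member probes were called (0% of all probes in each). Over all probes edgeR called 0 of 15594 in dams, 0 of 17513 in female pups and 0 of 16176 in male pups, with 150, 299 and 2703 at an unadjusted p under 0.05. DESeq2 called 0, 0 and 513 of all probes in these groups and 0 member probes in each. Without TCDD male pup 6, which leaves 3 adult-type libraries against 3 of newborn type, edgeR called 6451 probes in male pups, 1 of them the Hbb-bt probe, and Hba-a2 was called as well (-2.21 ± 0.23, adjusted p = 2.58e-06). Other erythroid genes gave 0 calls of 43, 53 and 45 tested. Hbq1a, a theta-like globin gene, had a log2 fold change of -1.31 ± 0.43 in female pups, and Slc38a5 of 2.06 ± 0.58 in male pups, with adjusted p of 0.996 and 0.273 by edgeR.

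Male against female pups, as labelled, were compared with class and TCDD label in the model. Hbb-bt had 1.15, 35.1 and 53.8 CPM (lowest, median, highest) in the 7 pups labelled male, against 8.26, 59.8 and 71.1 CPM in the 7 labelled female. The ranges overlapped, and 3 of the male and 1 of the female libraries were of adult type. The log2 fold change was -0.59 ± 0.20 (edgeR, adjusted p = 0.999). Alas2 and Slc4a1 had the same sign, at -1.44 ± 0.53 and -0.58 ± 0.32, as had Hba-a2 and Hbq1a at -0.73 ± 0.23 and -1.55 ± 0.47. None of them passed, as 0 of 3 member probes and 0 of 16198 probes (0%) were called by edgeR and 0 by DESeq2, with 476 at an unadjusted p under 0.05. With no filter on low counts, edgeR called 34 probes, among them Hbb-bt (-0.60 ± 0.13, adjusted p = 0.0108) and Hba-a2 (-0.73 ± 0.12, adjusted p = 1.27e-06), and over the alternatives the adjusted p of Hbb-bt was 0.0108 to 1. In newborn-type pups alone Hbb-bt lay at -0.41 ± 0.18, with medians of 41.7 CPM in 4 labelled male and 60.1 CPM in 6 labelled female, again overlapping. Y-linked transcripts go against the sex label in most of these libraries, so the direction holds for the labels only. Of pups labelled male, only TCDD 6 (89.3 CPM) and control 7 (67.6 CPM) reached 10 CPM of such transcripts. Among those labelled female, TCDD 11 (69.1 CPM), control 7 (71 CPM) and control 2 (76.8 CPM) also did. By Y-linked transcripts, newborn-type medians of Hbb-bt, dams included, ran the other way. They were 57 CPM where present and 43 CPM where absent, with overlapping ranges.

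**Figure D4:**
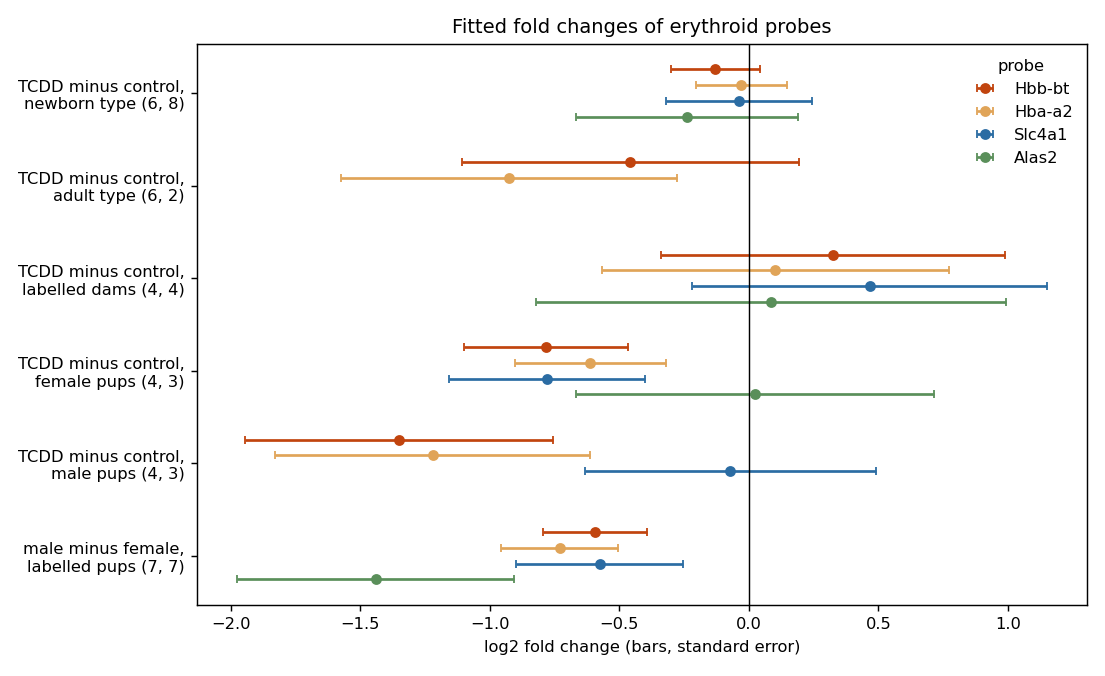
Fitted log2 fold changes of Hbb-bt, Hba-a2, Slc4a1 and Alas2 (points) with standard errors (bars) for TCDD minus control within each class and labelled group, and for male minus female among labelled pups; numbers in brackets are libraries on each side, and a probe is drawn only where it passed the low-count filter. In the newborn type all 4 lie within 0.25 of 0, and no adjusted p passed in any comparison.

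Genes most like the members within the newborn type were ranked by Spearman rho with the mean z-score of the 9 members over 14 libraries, among 10671 genes. The first 12 included Oxa1l (0.921), Polr2g (0.864), Samd9l (0.859), Pla2g7 (0.851) and Mettl16 (0.846). They also included Tmem150a (0.842), Bcl2l13 (0.829), Dcbld2 (0.829), Cdk7 (0.824), S100a1 (0.82) and Stfa1 (0.82). None of the first 12 is on the erythroid list, of which 2 genes, Blvrb and Nxpe2, were among the first 20. That score gives near-empty members the same weight as Hbb-bt. Set against Hbb-bt alone, a choice made after seeing the data, Hba-a2 came first (0.952), followed by Bend5 (0.864), Gosr2 (0.851), Klhl26 (0.842) and Alox5ap (0.837), with Hbq1a in place 9 (0.807). All libraries share the scaling by their own total, and with 14 of them such ranks are a description.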

How the data were processed

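TempO-Seq libraries of whole pancreas were sequenced on an Illumina NextSeq500, per the labels' protocols. The submitters' processing notes name bcl2fastq 2.17.1.14. The aligner is not given in the sources used here, nor is the build. The authors deposited a table of raw probe counts for 22 libraries, as whole numbers with unequal library totals and no normalization stated. Levels are CPM of the library total, summed over the probes of a gene. Log2 class values add 0.5 CPM. The labels describe no molecular identifiers, so counts are reads and precision rests on totals of 11223816 to 34911410 counts.

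The members, gene lists and comparisons were chosen with earlier results of these data known. Class values have no test. Tests used edgeR 4.0.16 in R 4.3.3 (filterByExpr, TMM, quasi-likelihood, Benjamini-Hochberg over all probes, threshold 0.05), fitted to the libraries of each comparison. The TCDD fits within classes were also run on simulated data with the same spread for all probes and no litters. That trial does not cover probes that vary more. Fold changes are log2, ± SE. Alternatives were DESeq2 1.42.0, its size factors, no filter, left-out libraries and limma 3.58.1 with litter as a block. Named genes were all members, the 3 genes per role with the highest newborn-type median, up to 4 by smallest p and the 12 most alike. Some genes that this rule names are not reported here.

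Labels give 1 male and 1 female pup per litter, so numbers mark shared litters. Deviations of litter mates from their group means correlated at -0.792 to 0.0652 over 7 litters, with 0 above 0.1. In TCDD litters 6, 8, 10 and 11 (-0.792, -0.403, -0.469 and -0.354) 1 pup is of newborn type and 1 of adult type. The group means there mix the classes, so these values cannot show whether litter mates are alike. Every pair of libraries of 1 group differed beyond sampling noise, with a chi-square per degree of freedom of 7.47 or more.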

Additional observations from a re-analysis of the deposited data

Results flagged for a closer look

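Single libraries stood far from the rest of their group in 12 of 56 combinations of group and gene (7 genes, libraries as labelled or by class). The cut-off flags about 1 in 20 by chance where values follow a normal distribution. Groups with many zeros or with both classes do not, and the groups share libraries, so no excess is read from the number flagged.

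Among libraries labelled TCDD male pup, number 6 stood apart with 44.5 CPM of Hbb-bt (next 3.60), 136 CPM of Hba-a2 (7.50), 3.71 CPM of Slc4a1 (0.47) and 0.455 CPM of Alas2 (0.0581). It is the 1 newborn-type library of those 4. Gata1 in the same library, at 1.14 CPM, was far above the other newborn-type libraries labelled TCDD (next 0.554).

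TCDD dam 6 had 1.99 CPM of Hbb-y, or 36 counts, far above the other TCDD dams (0.293) and above the other newborn-type libraries labelled TCDD (0.682). TCDD female pup 11 had 3.29 CPM of Alas2, against 1.15 CPM in the next newborn-type library labelled TCDD. TCDD female pup 6 had 1.0 CPM of both Alas2 and Slc4a1, each 17 counts, with the next adult-type values at 0.356 and 0.498 CPM. Alas2 in that library stood apart from the adult-type libraries labelled TCDD as well. TCDD male pup 8 held the only Hbb-y reads of that set, 4 counts or 0.233 CPM.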

How the results depend on the processing

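Of 464 alternative values, 398 counted as the same. For a fitted fold change this meant the same sign and side of the threshold. For a class difference it meant a move no larger than the SD within the classes, and for a count an equal or similar number. The 1 member without overlap between classes became 0 with TMM-scaled CPM, 0 with stage as labelled and 2 without the 8 libraries whose stage genes go against the label. In the same order, the share of all 10238 genes without overlap, newborn type (or pups) higher, was 16.2%, 0% and 88.6%, against 77.8% by CPM. Of the members, only 2, Hbb-bt and Slc4a1, are among these genes. With no filter, 112 probes passed in the adult type, 9 for the difference between classes and 34 for male minus female, with 1 member probe in the last and Hba-a2 among the first and the last. DESeq2 called 23 for the difference and 513 in male pups. Leaving out 1 library gave 0 to 2 probes in the adult type (2 without control dam 5, against 1 control library), and in male pups 0 to 6451 probes and 0 to 1 member probes, the highest without TCDD male pup 6. The cause of these changes was not tested.

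Signs of values near 0 turned. In the newborn type Slc4a1 lay at 0.10 in libraries fitting both labels, 0.042 with Y-linked transcripts as covariate and 0.092 with the replicate block, where Hbb-bt lay at -0.15; the block changed no call there or for male minus female (Hbb-bt -0.64). With class as covariate, Hba-a2 lay at -0.050 in dams and 0.067 in male pups, Alas2 at -0.21 in female pups and Slc4a1 at 0.62 in male pups. Leaving out 1 library gave, in the newborn type, -0.17 to 0.081 for Hba-a2 and -0.16 to 0.26 for Slc4a1, and in the adult type -1.80 to 1.71 for Hba-a2 and -1.34 to 2.28 for Hbb-bt. In dams it gave -0.28 to 0.40 for Alas2, -0.29 to 0.38 for Hba-a2 and -0.042 to 0.58 for Hbb-bt, in female pups -0.43 to 0.40 for Alas2, and in male pups -0.52 to 0.14 for Slc4a1. Values of Epb42, Klf1 and Hbb-bs and most of Gata1 rest on a few reads per library.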
